A study of Mus musculus with 12 samples.

Results

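Livers that lacked both p62 and Tsc1 in hepatocytes were compared with floxed control livers, asking how near the double deletion was to control. Both sets were chosen by the sample titles: 3 of the series' 12 poly(A) RNA-seq libraries were Tsc1/p62Δhep and 3 were p62F/F, so the comparison held 6 of 12 libraries. The p62F/F mice carried floxed alleles of Sqstm1, the gene of p62, and no Cre recombinase, and their titles call them WT. The Tsc1/p62Δhep mice carried the same floxed Sqstm1 alleles, floxed Tsc1 alleles and Alb-Cre, a Cre transgene under the albumin promoter. That promoter is active in hepatocytes, and the titles name deletion in hepatocytes. The state of both genes in the other cells of the liver was not measured. The remaining libraries were 3 of p62Δhep (floxed Sqstm1 with Alb-Cre) and 3 of Tsc1Δhep (floxed Tsc1 with Alb-Cre), and they are used only as reference points. All lines were backcrossed to C57BL/6 for at least 7 generations.

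Several things went together in this comparison. Against p62F/F, the Tsc1/p62Δhep libraries differed in Sqstm1, in Tsc1 and in Cre, and their counts were deposited in a second table, shared with Tsc1Δhep. These cannot be told apart with 6 libraries, and every difference given here is one between Tsc1/p62Δhep with Cre in the second table and p62F/F without Cre in the first. The name of the second table holds the word NORMAL after TSC1KO, which is not explained there. Age, diet, the time of day of collection and the sequencer of each library were not given in the sources used here. Nothing in the labels says whether each library had a mouse of its own, and the p-values then cover only the spread among samples, possibly technical.

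p62 carries ubiquitinated cargo into autophagosomes and can bind KEAP1, which holds down the antioxidant transcription factor NRF2. When p62 accumulates in hepatocytes, KEAP1 is sequestered and NRF2 targets are induced. TSC1 and TSC2 form a complex that restrains mTORC1, the kinase that couples nutrients and growth factors to protein, lipid and nucleotide synthesis and that acts on the lysosomal transcription factors TFEB and TFE3. Loss of TSC1 in hepatocytes activates mTORC1 chronically, which slows autophagy and is known to lead to stress, inflammation and tumours in mouse liver.

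Total counts were 18062844 to 20763224 in p62F/F and 15792048 to 17809454 in Tsc1/p62Δhep. Levels are given as CPM, counts divided by the TMM-scaled library size in units of 1e+06 counts, with 1 scale for all 12 libraries, and are listed in the order of libraries 1 to 3. Where 2 sets of 3 levels are given for a gene, p62F/F comes first and Tsc1/p62Δhep second. A gene is called higher or lower where edgeR's quasi-likelihood test gave a Benjamini-Hochberg adjusted p below 0.05 over all 12367 genes tested. A gene was tested where enough counts stood in at least 3 libraries, so a gene near 0 in one group passed through the other alone. The direction of such a gene was fixed by that filter. CPM are not divided by transcript length, so they compare libraries, not genes. Of the Y-linked genes, Eif2s3y was at 55.9, 50.7 and 52.5 CPM in p62F/F and 68.9, 72.2 and 71.9 CPM in Tsc1/p62Δhep, so each library held a Y-linked transcript.

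The targeted genes were read first. Sqstm1 was at 327, 358 and 356 CPM in p62F/F and 14, 16.9 and 19.1 CPM in Tsc1/p62Δhep (log2 fold change -4.38 ± 0.16 (SE), adjusted p = 3.54e-05), a 20.8-fold lower level. The p62Δhep libraries held 18.1, 12.7 and 20.4 CPM and the Tsc1Δhep libraries 1167, 771 and 976 CPM. Sqstm1 was thus low in both groups with floxed Sqstm1 and Cre, and above control where only Tsc1 was deleted. Tsc1 was at 29.1, 32.6 and 35.6 CPM in p62F/F and 13.3, 11.5 and 9.11 CPM in Tsc1/p62Δhep (log2 fold change -1.52 ± 0.16 (SE), adjusted p = 0.00116). In Tsc1Δhep it was at 5.56, 5.27 and 10.6 CPM. The Sqstm1 and Tsc1 levels went with the labels in every library, without overlap between the compared groups. How the counts fall over the deleted exons cannot be read from counts per gene. Sqstm1 also shares a near-identical stretch with a reference transcript of another gene.

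The distance between 2 libraries was taken as the root mean square difference of log2(CPM + 1) over the genes tested. It was 0.395 to 0.533 between p62F/F libraries and 0.278 to 0.512 between Tsc1/p62Δhep libraries. Between p62F/F and Tsc1/p62Δhep the 9 pairs lay at 0.752 to 0.899, with a median of 0.830, so the double-deleted livers stood outside the spread of both groups. Between p62F/F and Tsc1Δhep the distances were 0.901 to 1.30 with a median of 1.02. Between p62F/F and p62Δhep, which share a table, they were 0.397 to 0.663 with a median of 0.457. By this measure every Tsc1/p62Δhep library was nearer to every control library than any Tsc1Δhep library was, although both came from the second table. At the closest this was 0.899 against 0.901. The Tsc1Δhep libraries lay 0.646 to 0.981 from each other, a wider spread than in the compared groups, whose libraries alone set the filter. The median distance of Tsc1/p62Δhep was 0.933 to p62Δhep and 1.12 to Tsc1Δhep. Pairs share libraries, so these distances are a description without a test.

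**Figure D1:**
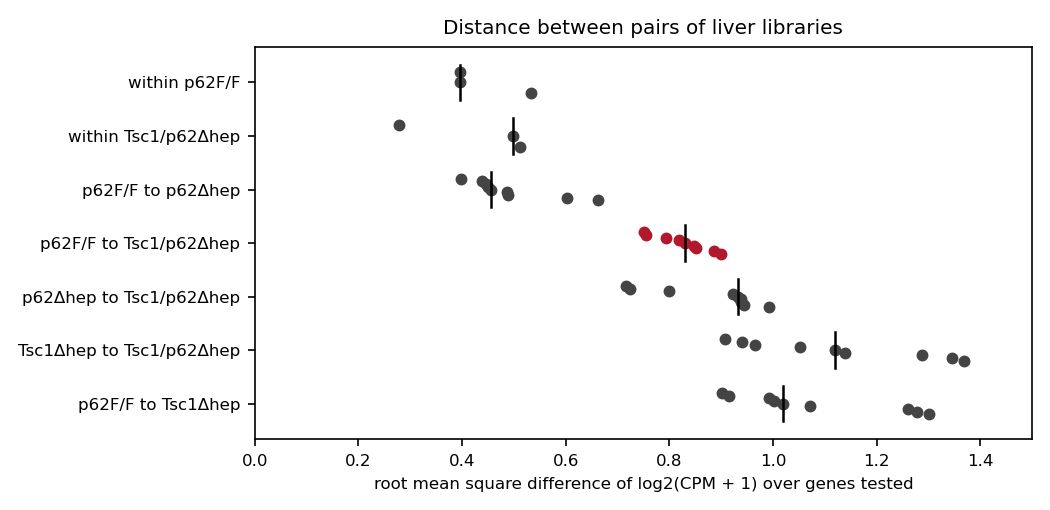
Distance between pairs of libraries (root mean square difference of log2(CPM + 1), x axis) for 7 kinds of pairs (y axis). Points are pairs and bars are medians. The p62F/F to Tsc1/p62Δhep pairs sit at 0.752 to 0.899, farther than the pairs within each of the compared groups. They are nearer than the p62F/F to Tsc1Δhep pairs at 0.901 to 1.30.

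By edgeR, 2177 of 12367 genes (17.6%) were higher in Tsc1/p62Δhep than in p62F/F and 2313 (18.7%) were lower, together 36.3%. The counts of every gene list below are to be read against these shares. Differences of over 2-fold were more often lower: 1474 genes were lower by over 2-fold and 546 higher by over 2-fold. The libraries of the 2 groups did not overlap in CPM for 6362 genes (51.4%). For 7141 genes (57.7%) the 95% interval of the difference lay within 2-fold of control in either direction, and 5697 of these were not called. The other 2180 genes were neither called nor held within 2-fold, so their nearness to control was not settled at this spread. The median absolute log2 fold change was 0.41. Without p62F/F library 3 the calls were 1111 higher and 1441 lower, and without Tsc1/p62Δhep library 2 they were 1392 higher and 1548 lower. Scaled by library totals in place of TMM they were 1291 higher and 2581 lower, so the share of calls that were higher was 33.3% in place of 48.5%.

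The libraries of the control group were uneven in some genes. Saa2, an acute-phase protein made by hepatocytes, was at 26899, 136 and 3842 CPM in p62F/F, so library 1 and then library 3 were far above library 2. H19, a fetal liver RNA, was at 2.14, 106 and 485 CPM in the same libraries, with library 1 the lowest. In Tsc1/p62Δhep, Saa2 was at 11.5, 12.9 and 16.8 CPM and H19 at 0.206, 1.21 and 1.58 CPM, so both were low there. Of the 194 genes named by rule that were called, 171 were still called in each of the 6 fits that left out 1 library. Any other gene named with a change was picked with its values in view. Where a call was lost without 1 library, that is said beside the gene.

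Some differences were shared by both groups of the second table. Of the 12367 genes tested, 881 had all 6 libraries of the second table above all 6 of the first, and 996 had them below. Of the 4490 called genes, 1485 (33.1%) were among these, 704 of them higher and 781 lower. Counts of such genes in the lists below are to be read beside these totals. Ubb, one of the polyubiquitin genes, was at 117, 124 and 137 CPM in p62F/F, 0.96, 1.27 and 1.01 CPM in Tsc1/p62Δhep and 0.669, 1.22 and 0.731 CPM in Tsc1Δhep. Sec61g, a subunit of the translocon of the endoplasmic reticulum, was at 32.1, 24.3 and 28.5 CPM in p62F/F, 0.206, 0.127 and 0 in Tsc1/p62Δhep and 0.501, 0.424 and 0.137 in Tsc1Δhep. The housekeeping genes Ubb and Sec61g were therefore near 0 in every library of the second table. Gm5506 was listed at 0 in all 6 libraries of the second table and at 29.9, 28.1 and 30.01 CPM in p62F/F, at least 449.8-fold lower in Tsc1/p62Δhep when a group total of 3 counts is taken as the floor. Eno1, a glycolytic enzyme, was also listed at 0 in the second table and was at 0.676, 0.775 and 0.938 CPM in p62F/F, at least 12.2-fold lower with the same floor. Ubb, Sec61g, Gm5506 and Eno1 each hold a stretch of at least 200 bases at 95% identity or more with another gene's reference transcript. Whether that other gene has counts here was not checked. The same holds for Saa2, Tsc2, Deptor, Mcoln1, Rragc, Phgdh, Pklr, Pkm, Scd2, Mki67, Gm129 and Usp2, described here with their values, so that their counts may be shared. Among 2723 tested genes with such a stretch 24.6% were lower and 14.2% higher, against 17.0% and 18.6% of the 9555 genes without one. List counts given below among genes with no such stretch leave out the members that hold one, so they come from fewer genes than the list. The same holds for counts among genes with a mean of at least 50 counts.

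**Figure D2:**
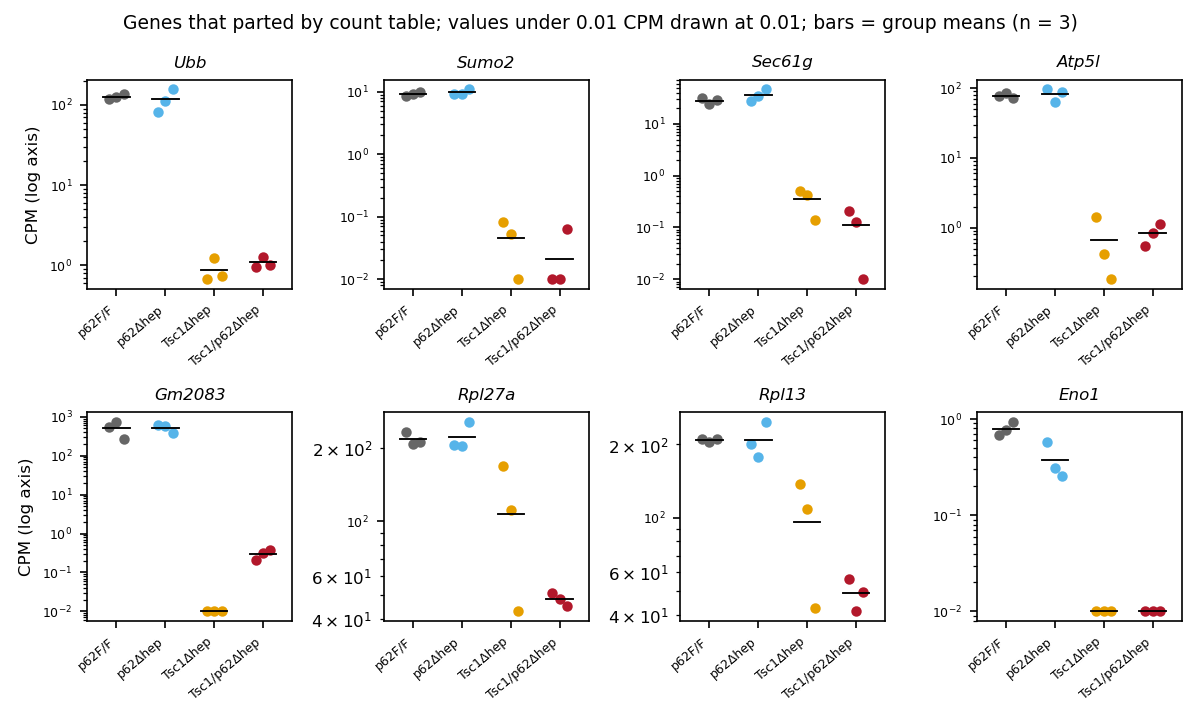
CPM (log axis, values under 0.01 drawn at 0.01) of 8 genes in the 12 libraries by group. Ubb, Sumo2, Sec61g, Atp5l and Gm2083 were near 0 in both groups of the second table, whatever the p62 genotype, while Ubb stood at 117 to 137 CPM in p62F/F.

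Of the ribosomal protein genes, 62 of 75 tested were lower and 1 was higher (median log2 fold change -0.76). In 10 of the 75 the 2 tables did not overlap, beside 881 above and 996 below among all 12367 genes tested. A near-identical stretch in another gene was held by 57 of the 75. Among the remaining members, with no such stretch found, 12 were called lower, so that count is not to be set against all 75. Of all genes without such a stretch 17.0% were lower. In 1 fit of all 12 libraries 22 members were called lower. Rpl13 was at 210.2, 205 and 211 CPM in p62F/F and 56.1, 41.3 and 49.6 CPM in Tsc1/p62Δhep (log2 fold change -2.09 ± 0.14 (SE), adjusted p = 0.000312). The ribosomal RNA transcript Rn45s was at 2.30% to 2.68% of counts in p62F/F and at 1.21%, 0.0872% and 0.181% in Tsc1/p62Δhep. It was not called by edgeR, though DESeq2 and limma on log2(CPM + 1) called it. Rn45s was at 1.91% to 3.50% in p62Δhep and at 0.0751% to 0.158% in Tsc1Δhep, so it was low in Tsc1Δhep too. Genes of the respiratory chain and ATP synthase, which make ATP in mitochondria, were mostly higher: 48 of 74 were higher and 2 lower, with 29 without p62F/F library 3 and 20 in 1 fit of all 12 libraries. In 28 of these 74 genes the 2 tables did not overlap. The part of the table in these differences was not tested.

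**Figure D3:**
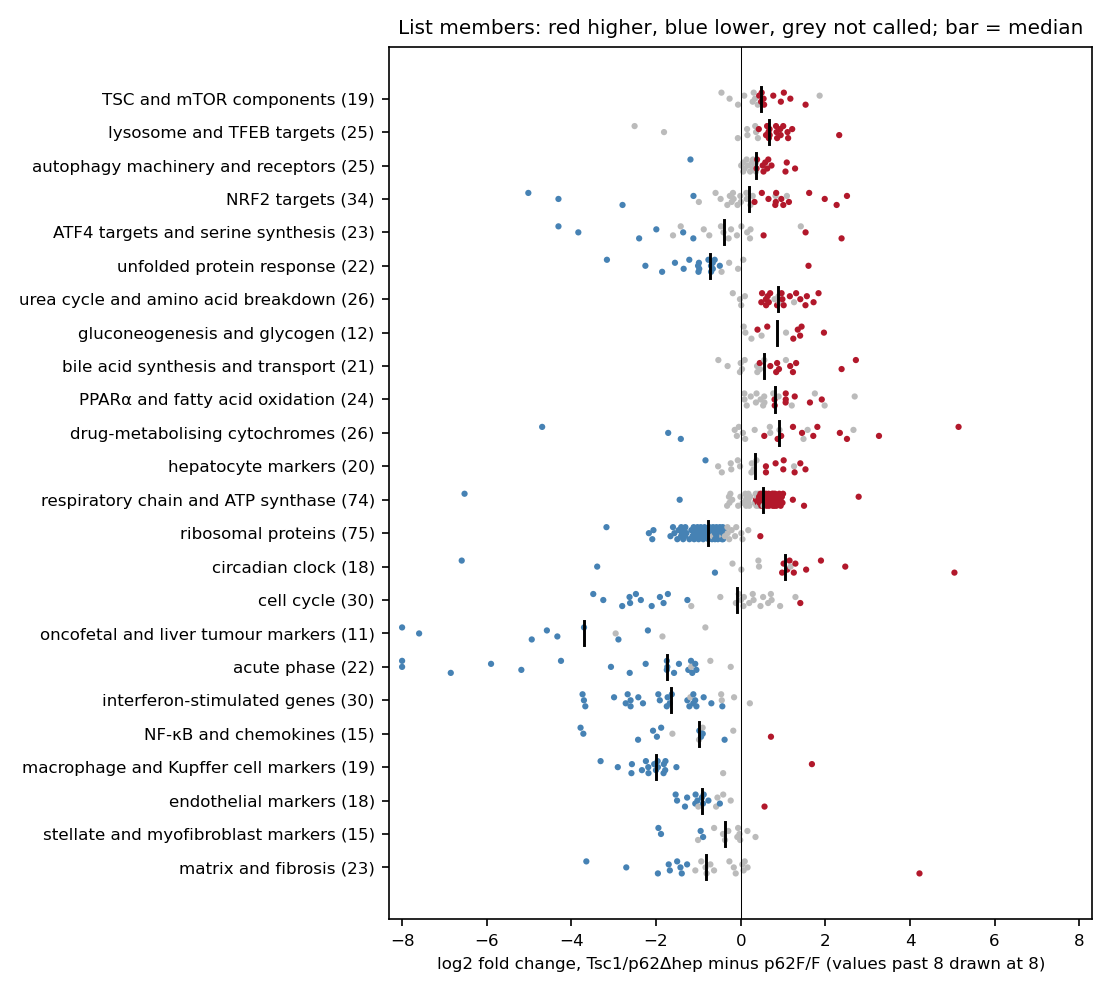
Log2 fold change of Tsc1/p62Δhep against p62F/F (x axis) for the tested members of 24 gene lists (y axis); red points were called higher, blue lower and grey not called, bars are list medians, and values past 8 are drawn at 8. Lysosome, urea cycle and gluconeogenesis genes had called members on the higher side alone, while called acute-phase and interferon genes were all on the lower side.

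Of the components of the TSC and mTOR pathway 10 of 19 were higher and none lower, with a median of 0.48, a list that leaves out Tsc1, itself lower. That count was 6 without p62F/F library 1 or without Tsc1/p62Δhep library 2, 3 without p62F/F library 3 and 5 without Tsc1/p62Δhep library 1 or with library totals as the scale or in 1 fit of all 12 libraries. Tsc2, the partner of TSC1 and its GTPase-activating subunit, was at 35.4, 37.9 and 34.1 CPM in p62F/F and 68.4, 74.2 and 75.2 CPM in Tsc1/p62Δhep (log2 fold change 1.02 ± 0.097 (SE), adjusted p = 0.000891). All 3 double-deleted libraries lay at about the same level, well above the controls. Deptor, an inhibitory partner of mTOR, was at 59.96, 76.1 and 65.6 CPM and 144, 157 and 153 CPM (log2 fold change 1.17 ± 0.12 (SE), adjusted p = 0.00105), and its adjusted p was above 0.05 in 1 fit of all 12 libraries. Sesn1, a sestrin that senses amino acids upstream of mTORC1, was at 11, 14.6 and 12.4 CPM and 29.3, 22.7 and 21.3 CPM (log2 fold change 0.95 ± 0.17 (SE), adjusted p = 0.0060). Neither Deptor nor Sesn1 overlapped between the groups.

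Most of the lysosomal genes tested were higher. Of 25 genes of the lysosome and of TFEB's known targets, 17 were higher and none lower, with a median of 0.66 against 0.0063 over all genes. Many genes of this kind carry the E-box CACGTG, read the same on both strands, near their start. A promoter here is the RefSeq sequence (GRCm38.p6) from 250 bases before to 50 after the annotated start. Among the 32851 promoters of RefSeq's table, 7.15% hold the motif, and of the 22 promoters of the 19 lysosome genes matched by symbol, 9 (40.9%) do. The Lamp1 promoter (chr8:13158911-13159210, plus strand) held 4 matches and that of Mcoln1 (chr8:3500269-3500568, plus strand) held 2. Both are printed because these genes were called higher and hold several matches, with the motif in capitals. A match is a run of letters, and binding was not measured.
Lamp1: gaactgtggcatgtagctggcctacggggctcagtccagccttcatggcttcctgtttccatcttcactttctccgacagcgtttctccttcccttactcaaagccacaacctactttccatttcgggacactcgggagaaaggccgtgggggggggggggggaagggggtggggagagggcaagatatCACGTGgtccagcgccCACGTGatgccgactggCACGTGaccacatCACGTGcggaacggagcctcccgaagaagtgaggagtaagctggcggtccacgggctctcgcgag
Mcoln1: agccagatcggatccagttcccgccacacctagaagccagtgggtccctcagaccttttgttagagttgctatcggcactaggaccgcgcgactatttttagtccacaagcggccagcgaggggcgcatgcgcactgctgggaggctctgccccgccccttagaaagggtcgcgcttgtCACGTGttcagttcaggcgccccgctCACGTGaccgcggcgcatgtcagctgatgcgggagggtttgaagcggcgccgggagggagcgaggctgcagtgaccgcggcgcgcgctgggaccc

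Lamp1, a major protein of the lysosomal membrane, was at 694, 651 and 635 CPM in p62F/F and 1062, 1218 and 1252 CPM in Tsc1/p62Δhep (log2 fold change 0.84 ± 0.15 (SE), adjusted p = 0.00561). Mcoln1, the calcium channel of the same membrane, was at 26.5, 28.9 and 24.4 CPM and 46, 49.5 and 64.6 CPM (log2 fold change 1.0 ± 0.15 (SE), adjusted p = 0.00325). Neither Lamp1 nor Mcoln1 overlapped between the groups. Rragc, a Rag GTPase that brings mTORC1 to the lysosome, was at 49.1, 45.2 and 53.1 CPM and 90.8, 105 and 87.2 CPM (log2 fold change 0.94 ± 0.12 (SE), adjusted p = 0.0018). Its relative Rragd was at 3.61, 7.94 and 18.1 CPM and 40.1, 57.6 and 51.3 CPM (log2 fold change 2.33 ± 0.50 (SE), adjusted p = 0.0113), with control library 3 the highest control. In Tsc1Δhep, Rragd stood at 279, 262 and 262 CPM, so the double deletion was between control and Tsc1Δhep. In 14 of the 25 lysosomal genes the 2 tables did not overlap, and the part of the table was not tested.

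Autophagy genes were called higher in 11 of 25 cases and lower in 1, a list that leaves out Sqstm1. The count was 7 without p62F/F library 1, 3 without p62F/F library 3, 4 without Tsc1/p62Δhep library 1 or without Tsc1/p62Δhep library 2 or in 1 fit of all 12 libraries and 5 with library totals as the scale. Atg7, the enzyme that activates the ubiquitin-like proteins of autophagy, was at 26.8, 46.3 and 28.3 CPM in p62F/F and 71.5, 81.6 and 62.8 CPM in Tsc1/p62Δhep (log2 fold change 1.09 ± 0.22 (SE), adjusted p = 0.00957). Gabarapl1, one of those ubiquitin-like proteins, was at 290.5, 530.3 and 322 CPM and 1019.5, 977 and 787 CPM (log2 fold change 1.28 ± 0.26 (SE), adjusted p = 0.00851). Its relative Gabarapl2 was at 33.5, 37.9 and 34.3 CPM and 15.6, 12.6 and 18.2 CPM (log2 fold change -1.19 ± 0.15 (SE), adjusted p = 0.00198). The groups did not overlap for Atg7, Gabarapl1 or Gabarapl2, and Gabarapl1 and Gabarapl2, which hold near-identical stretches in other genes, went in opposite directions.

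NRF2 targets were called in both directions. Of 34 tested, 13 (38.2%) were higher (8 without p62F/F library 3), 4 (11.8%) lower and 17 not called, with a median of 0.19. Over all genes 17.6% were higher and 18.7% lower, so the share of lower targets was below that of all genes. Nfe2l2, the gene of NRF2 itself, was at 59.7, 89.5 and 84.1 CPM in p62F/F and 80.3, 99.2 and 92.5 CPM in Tsc1/p62Δhep (log2 fold change 0.22, 95% interval -0.18 to 0.62). Keap1 was at 68.4, 65.9 and 65.8 CPM and 66.6, 65.6 and 53.5 CPM (log2 fold change -0.11, 95% interval -0.37 to 0.16). Both genes overlapped between the groups and neither was called. Nqo1, a quinone reductase often read as the index of NRF2 activity, was at 11.2, 16.1 and 8.99 CPM and 8.84, 8.79 and 12.8 CPM and was not called (95% interval -0.86 to 0.34). In Tsc1Δhep, Nqo1 was at 100.3, 76.7 and 31 CPM, above every control and every double-deleted library.

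Targets called higher included enzymes of conjugation, of glucose use and of iron storage. Ugdh makes the glucuronic acid used to conjugate drugs and bilirubin, and its promoter (chr5:65435793-65436092, minus strand) holds 2 matches to the antioxidant response element core TGACNNNGC, searched on both strands. That motif occurs in 12.4% of all promoters and in 10 of the 37 promoters (27%) of the 29 NRF2 targets matched by symbol. It is shown because Ugdh had the smallest p of the list, with the matches in capitals.
Ugdh: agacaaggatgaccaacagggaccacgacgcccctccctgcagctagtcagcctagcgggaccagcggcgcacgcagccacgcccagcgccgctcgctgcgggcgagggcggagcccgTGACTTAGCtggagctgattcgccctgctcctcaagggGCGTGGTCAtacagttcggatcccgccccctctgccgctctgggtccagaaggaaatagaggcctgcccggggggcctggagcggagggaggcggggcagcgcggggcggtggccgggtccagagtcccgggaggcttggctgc

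Ugdh was at 225, 224 and 211 CPM in p62F/F and 416, 482 and 428 CPM in Tsc1/p62Δhep (log2 fold change 1.01 ± 0.12 (SE), adjusted p = 0.00175). Tkt, an enzyme of the pentose phosphate pathway, was at 97.9, 119 and 105 CPM and 165, 195 and 205 CPM (log2 fold change 0.82 ± 0.13 (SE), adjusted p = 0.00403). Ephx1, a microsomal epoxide hydrolase, was at 138, 316 and 183 CPM and 549, 754 and 1221 CPM (log2 fold change 1.99 ± 0.39 (SE), adjusted p = 0.00828). In each of these 3 genes all double-deleted libraries exceeded all controls, and all 6 libraries of the second table exceeded all 6 of the first. Cyp2a5, the coumarin hydroxylase, was at 140.2, 489.7 and 206 CPM and 1689, 1589 and 1487 CPM (log2 fold change 2.51 ± 0.44 (SE), adjusted p = 0.00563), and its counts may be shared with near-identical family members. The glutathione transferase Gsta2 was at 5.86, 20.02 and 11.9 CPM, 74.2, 40.6 and 67.7 CPM and, in Tsc1Δhep, 341, 217 and 117 CPM. Gsta2 was higher than control by 2.27 ± 0.43 (SE, log2, adjusted p = 0.00721) and below every Tsc1Δhep library.

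The 4 NRF2 targets called lower were Cbr3, Gpx2, Hmox1 and Slc7a11. Cbr3, a carbonyl reductase, was at 8.68, 7.94 and 6.12 CPM in p62F/F and 1.3, 1.53 and 0.443 CPM in Tsc1/p62Δhep (log2 fold change -2.79 ± 0.40 (SE), adjusted p = 0.00288). Gpx2, a glutathione peroxidase of epithelia, was at 2.93, 0.867 and 3.25 CPM and 0.0686, 0 and 0.127 CPM (130 against 3 counts, ratio 34.6 with a 95% exact counting interval of 11.6 to 169.8, adjusted p = 0.00469). Such an interval covers counting error only, not the spread between libraries. Gpx2 passed the count filter through control alone, which fixed its direction. Hmox1, haem oxygenase, was at 38.7, 36.7 and 47.9 CPM and 17, 24.6 and 15.3 CPM (log2 fold change -1.12 ± 0.20 (SE), adjusted p = 0.00603). Cbr3 and Gpx2 were also low in p62Δhep, at 0.885, 0.626 and 0.971 and 0, 0.188 and 0.338 CPM, and high in Tsc1Δhep, at 251, 130.4 and 29.9 and 57.2, 16.5 and 9.0 CPM. Cbr3 and Gpx2 thus sat below control in both groups that lacked Sqstm1. Against Tsc1Δhep, where 1156 of 12620 genes (9.16%) were higher and 1881 (14.9%) lower, 1 of the 34 NRF2 targets was higher in Tsc1/p62Δhep and 13 were lower.

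**Figure D4:**
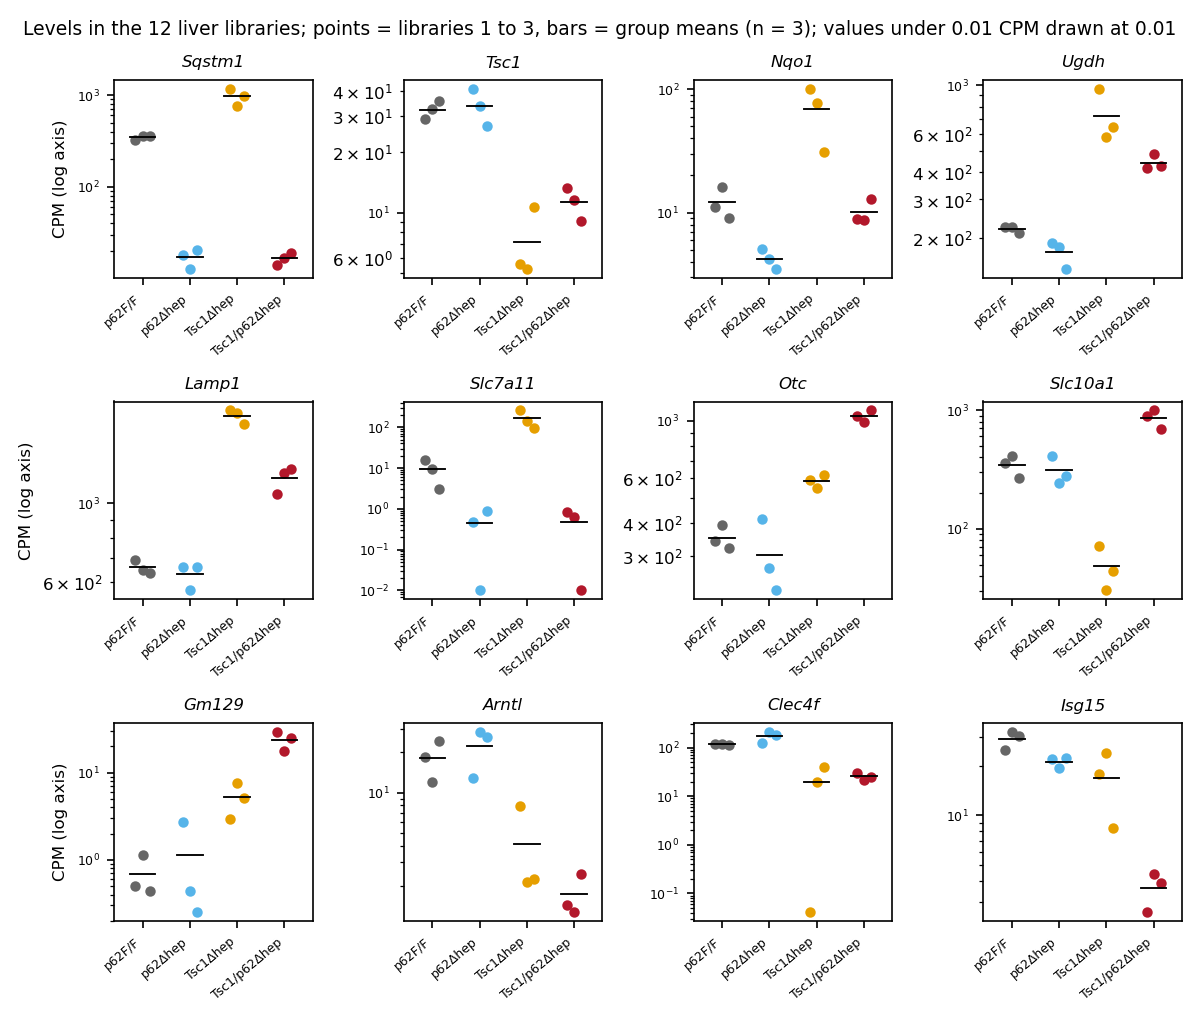
CPM (log axis, values under 0.01 drawn at 0.01) of 12 genes in the 12 libraries by group. Sqstm1 was low in both p62-deleted groups, Nqo1 and Slc7a11 were high in Tsc1Δhep alone, and Otc and Slc10a1 stood highest in the 3 Tsc1/p62Δhep libraries.

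The integrated stress response, in which ATF4 induces amino acid transport and synthesis, had members on both sides. Of 23 ATF4 targets 6 were lower (3 without p62F/F library 3 or without Tsc1/p62Δhep library 1 or among genes with a mean of at least 50 counts) and 3 were higher (1 without p62F/F library 3), to be read against 18.7% lower and 17.6% higher over all genes. Slc7a11, the cystine transporter that is a target of both ATF4 and NRF2, is shown because its promoter (chr3:50443564-50443863, minus strand) holds 2 matches to the CEBP-ATF element TGATGNAAN, searched on both strands and in capitals here. That motif is in 3.95% of all promoters and in 8 of the 24 promoters (33.3%) of the 20 ATF4 targets matched.
Slc7a11: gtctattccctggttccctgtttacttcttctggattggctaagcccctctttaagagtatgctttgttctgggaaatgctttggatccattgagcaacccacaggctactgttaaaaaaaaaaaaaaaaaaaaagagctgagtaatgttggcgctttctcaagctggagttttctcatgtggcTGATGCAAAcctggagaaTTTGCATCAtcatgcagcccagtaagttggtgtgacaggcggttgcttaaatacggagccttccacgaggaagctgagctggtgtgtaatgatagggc

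Slc7a11 was at 16.1, 9.72 and 3.14 CPM in p62F/F and 0.823, 0.637 and 0 CPM in Tsc1/p62Δhep (log2 fold change -4.31 ± 0.88 (SE), adjusted p = 0.00928), while Tsc1Δhep held 257, 139 and 98.4 CPM. Phgdh, the first enzyme of serine synthesis, was at 1.47, 2.65 and 5.46 CPM and 0.137, 0.318 and 0.19 CPM (log2 fold change -3.84 ± 0.64 (SE), adjusted p = 0.00442). Atf5, a transcription factor of the same family, was at 495, 524 and 475 CPM and 148, 223 and 211 CPM (log2 fold change -1.36 ± 0.18 (SE), adjusted p = 0.00213). In Slc7a11, Phgdh and Atf5 all double-deleted libraries were below all controls, with Slc7a11 and Phgdh at under 1 CPM. Phgdh passed the count filter through control alone, which fixed its direction, and Slc7a11 needed control libraries to pass. Gdf15, a secreted stress cytokine, was called higher, at 5.64, 6.52 and 4.52 CPM and 30.4, 28.2 and 28.7 CPM (log2 fold change 2.38 ± 0.16 (SE), adjusted p = 0.000312), and its double-deleted libraries exceeded the other 9 libraries of the series. Against Tsc1Δhep 16 of the ATF4 targets were lower and 2 higher.

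Genes of the unfolded protein response, which restores folding capacity in the endoplasmic reticulum, were lower in 17 of 22 cases, with a median of -0.73. The count was 10 without p62F/F library 3, 9 without Tsc1/p62Δhep library 1 or in 1 fit of all 12 libraries and 11 without Tsc1/p62Δhep library 2. Sdf2l1, a cofactor of the ER chaperone BiP, was at 68.6, 48.5 and 85.9 CPM in p62F/F and 12.8, 14.2 and 15.6 CPM in Tsc1/p62Δhep (log2 fold change -2.25 ± 0.22 (SE), adjusted p = 0.000891). Manf, a secreted ER stress protein, was at 219, 221 and 241 CPM and 52.4, 49.5 and 85.7 CPM (log2 fold change -1.86 ± 0.22 (SE), adjusted p = 0.00148). Hspa5, which encodes BiP, was at 1782, 1468 and 2038 CPM and 724, 657 and 897 CPM (log2 fold change -1.21 ± 0.20 (SE), adjusted p = 0.00446). Sdf2l1, Manf and Hspa5 were low in all 3 double-deleted libraries without overlap with control. Herpud1, a component of ER-associated degradation, was the member called higher, at 244, 357 and 311 CPM and 861, 641 and 1266 CPM (log2 fold change 1.6 ± 0.28 (SE), adjusted p = 0.00508). For 11 of the 22 members the 2 tables did not overlap, and against Tsc1Δhep, within the second table, none was called lower.

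Hepatocyte identity genes were mostly near control or above it. Of 20 hepatocyte markers 8 were higher (5 without p62F/F library 3) and 1, transferrin (Trf), was lower, a call lost without p62F/F library 1 or 3 or any single Tsc1/p62Δhep library, by limma and in 1 fit of all 12 libraries, and for 10 the 95% interval of the difference lay within 2-fold. Hnf4a, a transcription factor that maintains hepatocyte identity, was at 679, 566 and 694 CPM in p62F/F and 733, 747 and 831 CPM in Tsc1/p62Δhep (log2 fold change 0.25, 95% interval -0.098 to 0.60). Cebpa, another such factor, was at 365, 423 and 319.7 CPM and 379.9, 398 and 279 CPM (log2 fold change -0.069, 95% interval -0.50 to 0.36), a value whose sign changed with the processing. Apob, the structural protein of very low density lipoprotein, was at 8330.0, 7234 and 7203 CPM and 9684, 9843 and 9960.3 CPM (log2 fold change 0.37, 95% interval -0.11 to 0.85), and DESeq2 called it higher. Hnf4a, Cebpa and Apob were not called by edgeR, and their intervals exclude a 2-fold difference. Albumin, Alb, was at 22615, 53802 and 57346 CPM and 46659, 46956 and 71485 CPM with wide overlap, and its interval of -0.71 to 1.31 does not settle a 2-fold difference. The summed level of the marker list was 97972 to 133280.0 CPM in p62F/F and 119183 to 150582 CPM in Tsc1/p62Δhep, which overlapped.

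Genes that handle nitrogen were called higher in most cases. Of 26 genes of the urea cycle and amino acid breakdown 18 were higher (11 without p62F/F library 3 or without Tsc1/p62Δhep library 1) and none lower, with a median of 0.88. Otc, the mitochondrial ornithine transcarbamylase of the urea cycle, was at 341, 395 and 322 CPM in p62F/F and 1039, 990.3 and 1095 CPM in Tsc1/p62Δhep (log2 fold change 1.56 ± 0.15 (SE), adjusted p = 0.000891). Asl, the lyase that releases arginine, was at 266, 200.2 and 211 CPM and 1069, 717 and 639 CPM (log2 fold change 1.84 ± 0.23 (SE), adjusted p = 0.0019). For Otc and Asl the double-deleted libraries were above each of the other 9 libraries, p62Δhep and Tsc1Δhep included. Cps1, the entry enzyme of the cycle, was at 2873, 1595 and 2462 CPM and 6129, 4048 and 2873 CPM, overlapped and was not called (adjusted p = 0.0723), though DESeq2 and the fit without Tsc1/p62Δhep library 3 called it. Against Tsc1Δhep 22 of the 26 genes were higher and none lower.

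Genes of glucose output and glycogen were also above control: 7 of 12 were higher (4 in 1 fit of all 12 libraries) and none lower. Gys2, the liver's glycogen synthase, was at 83.6, 131 and 87 CPM in p62F/F and 396, 401 and 384 CPM in Tsc1/p62Δhep (log2 fold change 1.97 ± 0.19 (SE), adjusted p = 0.0010). Slc37a4, the transporter that feeds glucose-6-phosphatase, was at 117, 99.8 and 81.6 CPM and 287, 216 and 286 CPM (log2 fold change 1.4 ± 0.18 (SE), adjusted p = 0.00195). Both exceeded the other 9 libraries. Glycolysis had 5 of 24 higher and 7 lower (3 among genes with no near-identical stretch in another gene), to be read against 17.6% higher and 18.7% lower over all genes, and its median of 0.064 changed sign when scaled by library totals. Pklr, the liver form of pyruvate kinase, was at 149, 187 and 154 CPM and 498, 567 and 393 CPM (log2 fold change 1.57 ± 0.18 (SE), adjusted p = 0.00135). Pkm, the form of proliferating and non-hepatocyte cells, was at 26, 27.3 and 32.6 CPM and 8.16, 7.58 and 11.1 CPM (log2 fold change -1.67 ± 0.18 (SE), adjusted p = 0.00115), and its adjusted p was above 0.05 in 1 fit of all 12 libraries. Hk2, the hexokinase induced in growing cells, was at 4.06, 4.47 and 5.68 CPM and 0.686, 1.08 and 0.823 CPM (log2 fold change -2.44 ± 0.29 (SE), adjusted p = 0.00145). The liver form of pyruvate kinase was thus above control in every library while Pkm and Hk2 were below it.

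Bile acid genes were higher in 10 of 21 cases (6 without p62F/F library 1 or without Tsc1/p62Δhep library 2 or with library totals as the scale and 5 without p62F/F library 3) and lower in none. Slc10a1, the sodium-dependent importer of bile acids, was at 359, 409.9 and 269 CPM in p62F/F and 893, 992 and 687 CPM in Tsc1/p62Δhep (log2 fold change 1.31 ± 0.22 (SE), adjusted p = 0.00434). Tsc1Δhep held 72.1, 30.3 and 44.4 CPM. The importer was thus highest in the double deletion and lowest in Tsc1Δhep, with no overlap among those 3 groups. Slc27a5, which activates bile acids for conjugation, was at 655, 599.8 and 533 CPM and 1453, 1316 and 1439 CPM (log2 fold change 1.23 ± 0.16 (SE), adjusted p = 0.00187). Cyp27a1, an enzyme of the acidic pathway of synthesis, was at 358, 320.0 and 309.7 CPM and 627, 628 and 539.6 CPM (log2 fold change 0.86 ± 0.14 (SE), adjusted p = 0.00402). Cyp7a1, the rate-limiting enzyme of the classic pathway, was at 136, 339 and 67.6 CPM and 544, 327 and 269 CPM, overlapped and was not called (adjusted p = 0.168), though the fit without p62F/F library 2 called it.

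Of 26 drug-metabolising cytochromes and partners 11 were higher (7 among genes with no near-identical stretch in another gene) and 3 lower (1 without p62F/F library 1 or without p62F/F library 3 or without Tsc1/p62Δhep library 1 or among genes with no near-identical stretch in another gene). Cyp2b10, the usual index of the receptor CAR, was at 1.69, 4.7 and 1.77 CPM in p62F/F and 63.8, 37.5 and 194 CPM in Tsc1/p62Δhep (log2 fold change 5.15 ± 0.75 (SE), adjusted p = 0.00288). Por, the reductase that supplies electrons to all microsomal cytochromes, was at 193, 245 and 152 CPM and 638, 470.0 and 829 CPM (log2 fold change 1.71 ± 0.26 (SE), adjusted p = 0.00328). Cyp2b10 varied several-fold among the double-deleted libraries, and Por exceeded the other 9 libraries in all 3. Genes of PPARα and fatty acid oxidation were higher in 8 of 24 cases (5 without p62F/F library 1 or without p62F/F library 3 and 2 in 1 fit of all 12 libraries) and lower in none (2 without Tsc1/p62Δhep library 3).

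Cholesterol synthesis had 2 of 20 genes higher and none lower, and the higher count was 1 without p62F/F library 2 or without p62F/F library 3 or without Tsc1/p62Δhep library 1 or without Tsc1/p62Δhep library 2 or with library totals as the scale or in 1 fit of all 12 libraries, 9 without Tsc1/p62Δhep library 3 and 4 by DESeq2. Lipogenesis had 5 of 18 higher (3 without p62F/F library 1 or without Tsc1/p62Δhep library 1 or without Tsc1/p62Δhep library 2, 2 without p62F/F library 3, 8 without Tsc1/p62Δhep library 3 and 1 in 1 fit of all 12 libraries) and 3 lower (1 among genes with no near-identical stretch in another gene). Both lists are to be read against 17.6% higher and 18.7% lower over all genes. Pnpla3, a lipid droplet protein induced by feeding, was at 2.87, 10.6 and 11.3 CPM in p62F/F and 0, 0.191 and 0.0633 CPM in Tsc1/p62Δhep (adjusted p = 0.00206), and it was at 0.0836, 0.371 and 0.183 CPM in Tsc1Δhep. Scd2, a desaturase of low level in adult liver, was at 36.1, 121 and 189 CPM and 14.7, 7.32 and 4.68 CPM (log2 fold change -3.7 ± 0.66 (SE), adjusted p = 0.00586). Pnpla3 and Scd2 were low in every double-deleted library, and Pnpla3 passed the count filter through control alone, which fixed its direction. Fasn, fatty acid synthase, was at 515, 307 and 486 CPM and 362, 351 and 216 CPM and was not called (95% interval -1.11 to 0.12).

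Hepatocytes differ along the lobule, with amino acid breakdown near the portal vein and glutamine synthesis near the central vein. Marker counts along it are to be read against 17.6% higher and 18.7% lower over all genes. Of 16 periportal markers 6 were higher and none lower, and of 15 pericentral markers 2 were higher (4 without Tsc1/p62Δhep library 3 and 0 in 1 fit of all 12 libraries) and 1 lower (2 without Tsc1/p62Δhep library 3). Cyp2f2, a periportal cytochrome, was at 355, 336 and 417 CPM in p62F/F and 1744, 1658 and 2213 CPM in Tsc1/p62Δhep (log2 fold change 2.34 ± 0.19 (SE), adjusted p = 0.000554). Agxt2l1, a periportal phospholyase, was at 19.2, 23.8 and 18.1 CPM and 256, 151 and 244 CPM (log2 fold change 3.41 ± 0.24 (SE), adjusted p = 0.000363). Glul, the glutamine synthetase of the cells around the central vein, was at 1674, 1789.8 and 1342 CPM and 1569, 1641 and 1564 CPM (log2 fold change -0.0097, 95% interval -0.42 to 0.40), with overlap and no call. In Tsc1Δhep, Glul was at 129, 271 and 469 CPM, below all controls. Glul shares a near-identical stretch with another gene. Cyp2f2 and Agxt2l1, 2 of the 6 periportal markers called, were thus above control in every double-deleted library, while 10 of the 16 were not called. Glul lay within the control range, and the pericentral list ran from -3.29 to 1.28 in log2 fold change. Its called members were Slc1a2, Slc1a4 and Cyp1a2. The calls of Slc1a2 and Cyp1a2 were lost in 1 fit of all 12 libraries.

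**Figure D5:**
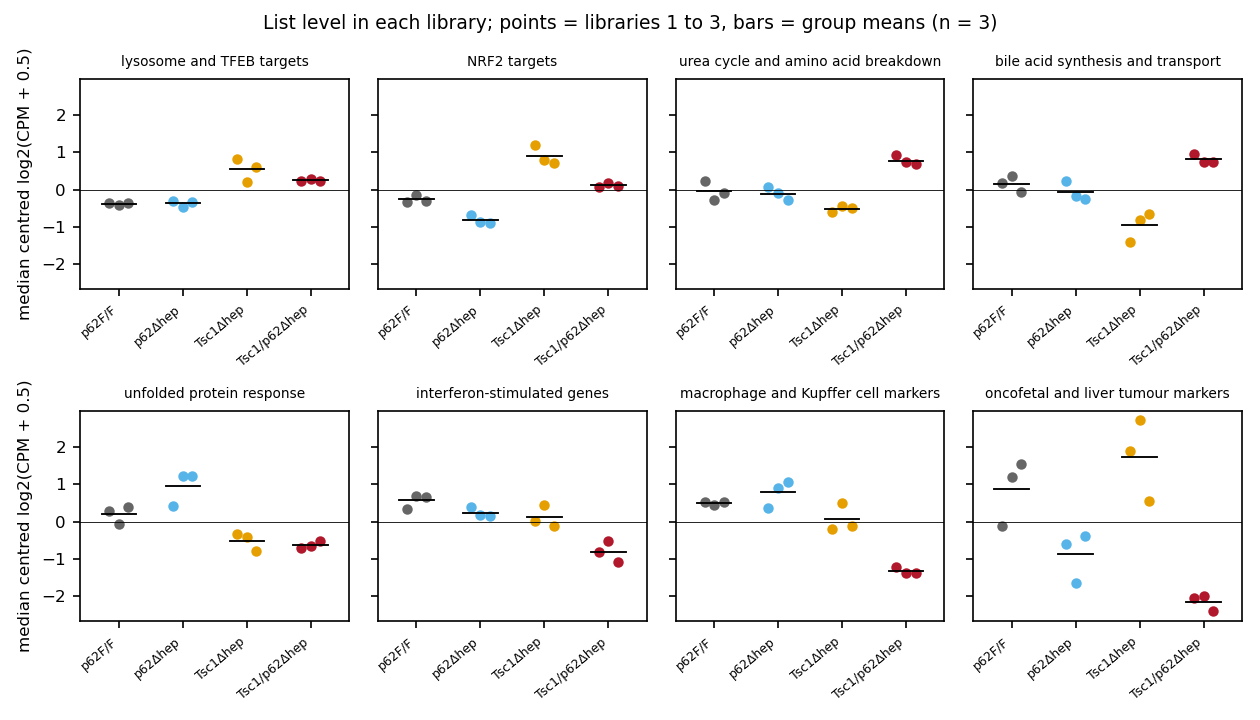
Score of 8 gene lists (median over members of log2(CPM + 0.5) centred over the 12 libraries, y axis) in each library by group. The macrophage and interferon scores of Tsc1/p62Δhep lie below those of p62F/F, and its urea cycle scores above.

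Fetal and tumour markers of liver were called on the lower side alone. Of 11 tested (of 15 listed), some of which passed the count filter through control alone, 8 were lower and none higher, and without Tsc1/p62Δhep library 2 the count was 5. Their summed level was 168 to 969 CPM in p62F/F and 27.3 to 39.4 CPM in Tsc1/p62Δhep. It was 84.9 to 98.2 CPM in p62Δhep, also below every control library, and 745 to 1890 CPM in Tsc1Δhep. The list's median log2 fold change against p62F/F was -3.34 in p62Δhep and -3.70 in Tsc1/p62Δhep, so the lower level was shared by p62Δhep. Ly6d, a surface protein seen in damaged liver, was at 54.3, 62.4 and 79.8 CPM and 0.96, 1.21 and 4.18 CPM (log2 fold change -4.94 ± 0.49 (SE), adjusted p = 0.0010), and Tsc1Δhep held 578, 229 and 241 CPM. Cd44, a hyaluronan receptor of leukocytes and tumour cells, was at 16.8, 16.7 and 20.8 CPM and 4.11, 4.14 and 3.61 CPM (log2 fold change -2.19 ± 0.16 (SE), adjusted p = 0.000402). Afp, α-fetoprotein, was at 1.47, 43.7 and 22 CPM and 1.1, 1.66 and 0.57 CPM. The groups overlapped for Afp, where control library 1 was as low as the double deletion, although edgeR called it lower (log2 fold change -4.33, adjusted p = 0.0203). That call was lost without p62F/F library 3 or any single Tsc1/p62Δhep library, and that of H19, above, without Tsc1/p62Δhep library 1 or 2. Gpc3, glypican-3, was at 2.93, 56.5 and 6.51 CPM and 1.78, 2.36 and 4.37 CPM and was not called, though DESeq2 and the fit without p62F/F library 1 called it.

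Myc, the growth-promoting transcription factor, was at 6.71, 8.53 and 9.05 CPM in p62F/F and 1.44, 1.66 and 3.42 CPM in Tsc1/p62Δhep (log2 fold change -1.89 ± 0.34 (SE), adjusted p = 0.0062). Tsc1Δhep held 14.2, 20.2 and 8.04 CPM and p62Δhep 3.54, 2.94 and 3.08 CPM, so Myc was below control in both groups without p62. The list counts that follow are to be read against 17.6% higher and 18.7% lower over all genes. Of 19 MYC targets 3 were higher and 5 lower (2 without p62F/F library 1 or without p62F/F library 3 or without Tsc1/p62Δhep library 2, 1 without Tsc1/p62Δhep library 1 or in 1 fit of all 12 libraries and 3 among genes with no near-identical stretch in another gene or by limma with GC and length trends removed). Cell cycle genes were lower in 12 of 30 cases and higher in 1, and the lower count was 6 without p62F/F library 3 or without Tsc1/p62Δhep library 2, 7 without Tsc1/p62Δhep library 1 and 2 among genes with a mean of at least 50 counts. The list's median was -0.080. Its summed level was 138, 185 and 236 CPM in p62F/F and 128, 121 and 291 CPM in Tsc1/p62Δhep, so library 3 of the latter stood above all controls and the other 2 below them. Mki67, a nuclear protein of cycling cells, was at 7.21, 8.3 and 17.6 CPM and 1.23, 0.891 and 0.823 CPM (log2 fold change -3.48 ± 0.42 (SE), adjusted p = 0.00168). Top2a, the topoisomerase of dividing cells, was at 4.62, 5.52 and 10.8 CPM and 0.891, 0.70 and 1.77 CPM (log2 fold change -2.63 ± 0.47 (SE), adjusted p = 0.0057). Both Mki67 and Top2a lay below all other 9 libraries in the 3 double-deleted ones. The p53 targets split, with 6 of 17 higher and 4 lower (2 without p62F/F library 1 or without Tsc1/p62Δhep library 2 and 1 without p62F/F library 3 or without Tsc1/p62Δhep library 1 or in 1 fit of all 12 libraries). Among them Ccng1, cyclin G1, was at 55.2, 67.7 and 58.6 CPM and 127, 165 and 164 CPM (log2 fold change 1.33 ± 0.15 (SE), adjusted p = 0.00119), and at 234, 216 and 128 CPM in Tsc1Δhep.

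Acute-phase, NF-κB and interferon genes were mostly lower in double-deleted liver than in control liver. In bulk tissue, fewer cells of a type and less RNA per cell cannot be told apart, which holds for each cell type below. Of 22 acute-phase genes, which hepatocytes make in response to cytokines, 19 were lower (12 without p62F/F library 3, 10 without Tsc1/p62Δhep library 1 and 9 without Tsc1/p62Δhep library 2) and none higher, with a median of -1.74. Their summed level was 31152 to 171842 CPM in p62F/F and 20732 to 22316 CPM in Tsc1/p62Δhep, so the groups did not overlap and the control range was the wider. In Tsc1Δhep the acute-phase sum was 23443 to 34604 CPM. For 9 of the 22 acute-phase genes the 2 tables did not overlap. Against Tsc1Δhep, within the second table, 4 of the 22 were lower and 1 was higher. Lcn2, lipocalin 2, was at 2220.2, 154 and 785 CPM and 7.54, 9.81 and 9.999 CPM (log2 fold change -6.85 ± 0.98 (SE), adjusted p = 0.00281). Apcs, serum amyloid P, was at 2417, 420.1 and 1189 CPM and 41.5, 47.8 and 21.6 CPM (log2 fold change -5.18 ± 0.69 (SE), adjusted p = 0.00226). Hp, haptoglobin, was at 23188, 4880.1 and 9770.0 CPM and 1574, 1554 and 1393 CPM (log2 fold change -3.07 ± 0.55 (SE), adjusted p = 0.00597). The control libraries spread widely for Lcn2, Apcs and Hp, and even the lowest control, library 2, stood above every double-deleted library. Socs3, the feedback inhibitor of the same cytokine signal, was at 87.6, 11.3 and 76.2 CPM and 2.13, 2.36 and 4.68 CPM (log2 fold change -4.25 ± 0.77 (SE), adjusted p = 0.00628). NF-κB targets and chemokines were lower in 10 of 15 tested (6 without p62F/F library 3 and 5 in 1 fit of all 12 libraries), among them Cxcl1, a neutrophil chemokine, at 87.5, 25.4 and 165 CPM and 6.44, 8.91 and 5.7 CPM (log2 fold change -3.72 ± 0.64 (SE), adjusted p = 0.00504).

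Interferon-stimulated genes were lower in 25 of 30 cases and higher in none, with a median of -1.65. Isg15, a ubiquitin-like antiviral protein, was at 25, 32 and 30.2 CPM in p62F/F and 2.61, 4.39 and 3.92 CPM in Tsc1/p62Δhep (log2 fold change -2.99 ± 0.21 (SE), adjusted p = 0.000388). Oas1a, which makes the activator of RNase L, was at 6.65, 8.44 and 12.5 CPM and 0.686, 0.764 and 0.696 CPM (log2 fold change -3.67 ± 0.32 (SE), adjusted p = 0.00066). Zbp1, a sensor of unusual nucleic acids, was at 18.3, 12.4 and 17 CPM and 2.26, 2.93 and 2.03 CPM (log2 fold change -2.72 ± 0.23 (SE), adjusted p = 0.000632). Isg15, Oas1a and Zbp1 were low in the 3 double-deleted libraries against all 9 others, so Tsc1Δhep, in the same table, did not share these levels. Isg15 and Oas1a hold near-identical stretches in other genes. Against Tsc1Δhep 16 of the 30 interferon genes were lower. Of 15 antigen presentation genes 6 were lower (2 in 1 fit of all 12 libraries) and 1 higher.

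Markers of macrophages and Kupffer cells, the resident macrophages of the liver, moved with these groups. Of 19 tested (of 20 listed) 17 were lower and 1, Cd163, was higher, a call lost without Tsc1/p62Δhep library 1 and in 1 fit of all 12 libraries, with a median of -2.0. Their summed level was 896 to 1107 CPM in p62F/F, 863 to 1389 in p62Δhep, 502 to 839 in Tsc1Δhep, while Tsc1/p62Δhep held 199.7 to 263 CPM. Clec4f, a lectin specific to mouse Kupffer cells, was at 119, 118 and 114 CPM in p62F/F and 30.6, 21.9 and 25.1 CPM in Tsc1/p62Δhep (log2 fold change -2.18 ± 0.14 (SE), adjusted p = 0.000312). C1qa, a complement subunit made by macrophages, was at 49.7, 48.9 and 50.8 CPM and 12.9, 14.6 and 16.1 CPM (log2 fold change -1.78 ± 0.12 (SE), adjusted p = 0.000312). Ccr2, the chemokine receptor of incoming monocytes, was at 8.62, 7.8 and 7.01 CPM and 0.754, 0.828 and 0.759 CPM (log2 fold change -3.31 ± 0.22 (SE), adjusted p = 0.000316). Clec4f, C1qa and Ccr2 each had double-deleted libraries far below a tight control group. Clec4f was also low in Tsc1Δhep, at 0.0418, 19.9 and 39.8 CPM, and its adjusted p was above 0.05 in 1 fit of all 12 libraries. Emr1, the gene of the F4/80 antigen, was at 19, 17.1 and 27 CPM and 4.87, 5.09 and 3.92 CPM (log2 fold change -2.18 ± 0.22 (SE), adjusted p = 0.0010). The part of these markers in the interferon and acute-phase differences was not tested.

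Neutrophil markers summed to 10.9 to 138 CPM in p62F/F and 0.96 to 1.84 CPM in Tsc1/p62Δhep. The 4 tested of 10 were called lower, but Elane, S100a8 and S100a9 passed the count filter through control alone, which fixed their direction. Elane, neutrophil elastase, was at 4.51, 0.547 and 0.827 CPM and listed at 0 in all 3 double-deleted libraries, at least 28.4-fold lower with the floor of 3 counts over the group, and its adjusted p was 0.0271, and above 0.05 without p62F/F library 3 or Tsc1/p62Δhep library 1 or 2. Of the lymphocyte lists, 3 of 14 T and NK cell markers passed the count filter with 1 lower, Gzmb, a call lost without p62F/F library 3 or any single Tsc1/p62Δhep library, and 3 of 7 B and plasma cell markers with none called. Pancreas and muscle markers did not pass the filter. Endothelial markers were lower in 12 of 18 cases (5 without p62F/F library 3, 6 without Tsc1/p62Δhep library 2 and 2 in 1 fit of all 12 libraries) and higher in 1, with summed levels of 328 to 461 CPM in p62F/F and 232 to 322 CPM in Tsc1/p62Δhep. Cdh5, the cadherin of endothelial junctions, was at 17.2, 23.6 and 27.6 CPM and 11.7, 9.23 and 7.53 CPM (log2 fold change -1.27 ± 0.23 (SE), adjusted p = 0.00598). Stab2, a scavenger receptor of sinusoidal endothelium, was the member that was higher, at 40.2, 53.5 and 46.3 CPM and 70.6, 68.1 and 68.3 CPM (log2 fold change 0.56 ± 0.12 (SE), adjusted p = 0.0117), a call lost when scaled by library totals and in 1 fit of all 12 libraries. The endothelial genes therefore did not all move one way.

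Stellate cell markers were lower in 4 of 15 cases (2 without p62F/F library 2 or without p62F/F library 3 or without Tsc1/p62Δhep library 1 or without Tsc1/p62Δhep library 2 or in 1 fit of all 12 libraries or among genes with a mean of at least 50 counts) and higher in none, and their summed level of 205 to 412 CPM in p62F/F overlapped 247 to 319.9 CPM in Tsc1/p62Δhep. The 4 stellate genes called lower were 26.7% of those tested, beside 18.7% lower over all genes. Acta2, the smooth muscle actin of activated stellate cells, was at 4.11, 2.96 and 4.03 CPM and 0.891, 1.34 and 0.759 CPM (log2 fold change -1.88 ± 0.31 (SE), adjusted p = 0.00436). Rgs5, a pericyte gene, was at 20.3, 21 and 25.5 CPM and 7.54, 4.08 and 5.76 CPM (log2 fold change -1.94 ± 0.23 (SE), adjusted p = 0.00152). Matrix and fibrosis genes were lower in 9 of 23 tested and higher in 1, and without p62F/F library 1 the lower count was 14. Col4a1, a chain of basement membrane collagen, was at 31.5, 46.6 and 55.1 CPM and 15.6, 14.1 and 12.1 CPM (log2 fold change -1.67 ± 0.22 (SE), adjusted p = 0.0020). Col5a2, a chain of fibrillar collagen, was the member that was higher, at 10.3, 9.08 and 11.4 CPM and 178, 163 and 233 CPM (log2 fold change 4.22 ± 0.18 (SE), adjusted p = 0.000102), above the other 9 libraries. Acta2, Rgs5 and Col4a1 were below the other 9 libraries, which left Col5a2 as the exception.

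Clock genes differed in both directions. Of 18 clock and clock-output genes 10 were higher (5 in 1 fit of all 12 libraries and 6 among genes with no near-identical stretch in another gene) and 3 lower, with a median of 1.06. Clock proteins CLOCK and ARNTL drive genes through the E-box CACGTG, and the proteins of the Per and Cry genes and of Gm129 (Ciart) repress them. Of the 20 promoters of the 15 clock genes matched, 6 (30%) hold the motif, against 7.15% of all promoters. The use of this motif for this list was decided after its values were seen. The Gm129 promoter (chr3:95882179-95882478, minus strand) is shown with its 3 matches in capitals because Gm129 was among the largest rises.
Gm129: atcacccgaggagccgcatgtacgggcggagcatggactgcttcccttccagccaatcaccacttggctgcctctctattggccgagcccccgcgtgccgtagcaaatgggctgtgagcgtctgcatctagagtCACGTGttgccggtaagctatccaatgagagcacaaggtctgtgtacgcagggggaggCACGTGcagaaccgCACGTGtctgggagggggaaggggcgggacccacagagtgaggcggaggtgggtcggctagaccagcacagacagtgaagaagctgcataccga

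Gm129 was at 0.507, 1.14 and 0.441 CPM in p62F/F and 29.3, 17.8 and 24.7 CPM in Tsc1/p62Δhep (log2 fold change 5.05 ± 0.37 (SE), adjusted p = 0.000388). Tef, an output factor of the clock, was at 66.8, 109.7 and 60.1 CPM and 313, 295 and 273 CPM (log2 fold change 1.9 ± 0.23 (SE), adjusted p = 0.00175). Per1, a core repressor, was at 25.1, 27.6 and 23.7 CPM and 57.7, 36.4 and 56.4 CPM (log2 fold change 0.98 ± 0.19 (SE), adjusted p = 0.00728), and its adjusted p was above 0.05 in 1 fit of all 12 libraries. Gm129, Tef and Per1 were higher than in all other 9 libraries. The activators were lower: Arntl was at 18.4, 11.9 and 24.4 CPM and 1.44, 1.27 and 2.47 CPM (log2 fold change -3.39 ± 0.36 (SE), adjusted p = 0.00108), and Npas2, a partner of Arntl, at 4.73, 3.06 and 6.84 CPM and 0, 0.0637 and 0.0633 CPM (275 against 2 counts, ratio 109.7 with a 95% exact counting interval of 30.1 to 910.0, adjusted p = 0.000891). Npas2 passed the count filter through control alone, which fixed its direction, and its interval covers counting error only. Clock was at 62, 50.9 and 62.6 CPM and 39.4, 38.5 and 37.1 CPM (log2 fold change -0.61 ± 0.11 (SE), adjusted p = 0.00683). Arntl, Npas2 and Clock were lower in both groups of the second table, with Arntl at 7.9, 2.14 and 2.24 CPM in Tsc1Δhep, and so cannot be told apart from the table. Since the hour of collection is not given, the hour and the genotype cannot be told apart either. Usp2, a deubiquitinase with strong daily rhythm, was at 7.21, 8.85 and 4.3 CPM and 147, 89.3 and 145 CPM (log2 fold change 4.22 ± 0.32 (SE), adjusted p = 0.00042) and Upp2, a rhythmic uridine phosphorylase, at 32.8, 98.7 and 72.9 CPM and 2058, 1443 and 1103 CPM (log2 fold change 4.49 ± 0.46 (SE), adjusted p = 0.00105). Both were among the 12 largest rises, and their double-deleted libraries were above the other 9.

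Other genes among the largest rises had few counts in control. Tiam2 and Ppp1r3g passed the count filter through Tsc1/p62Δhep alone, which fixed their direction. Tiam2, an activator of the GTPase Rac, was at 0.282, 0.0456 and 0.165 CPM in p62F/F and 13.8, 15 and 8.61 CPM in Tsc1/p62Δhep (log2 fold change 6.24 ± 0.47 (SE), adjusted p = 0.000416). Cyp46a1, a cholesterol hydroxylase known from neurons, was at 0.338, 2.24 and 0.441 CPM and 21.2, 32.2 and 38 CPM (log2 fold change 4.85 ± 0.60 (SE), adjusted p = 0.00176). Ppp1r3g, a glycogen-targeting subunit of protein phosphatase 1, was at 0, 0.274 and 0.276 CPM and 8.3, 8.91 and 3.29 CPM (log2 fold change 5.13 ± 0.71 (SE), adjusted p = 0.00243). Cyp46a1 and Ppp1r3g were above the other 9 libraries, while Tiam2 was also present in Tsc1Δhep, at 0.877, 14.5 and 10.7 CPM. Among the largest falls, Akr1c18, a steroid reductase in the tumour marker list, was at 15.7, 67.3 and 79.4 CPM and 0, 0.191 and 0 CPM (3194 against 3 counts, ratio 849 with a 95% exact counting interval of 290.3 to 4119.6, adjusted p = 0.00115, where counts are summed over each group). Prtn3, proteinase 3 of myeloid cells, was at 98.6, 7.3 and 45.6 CPM and 0.137, 0 and 0 CPM (2736 against 2 counts, ratio 1091 with a 95% exact counting interval of 302 to 9013, adjusted p = 0.00311). Myo7b, a myosin of epithelial microvilli, was at 3.95, 6.66 and 7.89 CPM and 0.0686, 0 and 0 CPM (359 against 1 counts, ratio 286 with a 95% exact counting interval of 51.1 to 11339.9, adjusted p = 0.000662). Akr1c18, Prtn3 and Myo7b were at or near 0 in the double deletion and passed the count filter through control alone, which fixed their direction. Their intervals cover counting error only, not the spread between the control libraries.

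Genes whose double-deleted libraries lay outside all other 9 libraries of the series were counted last. For 1055 genes (8.53%) the 3 lay above and for 969 (7.84%) below. Sulf2, a sulfatase that edits heparan sulfate outside the cell, was at 8.4, 10.7 and 6.62 CPM in p62F/F, 8.9, 3.63 and 6.25 in p62Δhep, 20.2, 37.8 and 59.6 in Tsc1Δhep, while Tsc1/p62Δhep held 71.6, 68.4 and 75.9 CPM. Prex1, an activator of Rac, was at 10.4, 11.1 and 10.8 CPM in p62F/F, 10.2, 12.3 and 11.6 in p62Δhep, 2.17, 7.52 and 10.01 in Tsc1Δhep, while Tsc1/p62Δhep held 44.1, 38 and 37.8 CPM. Il1rn, the interleukin-1 receptor antagonist, was at 22.5, 24.2 and 34 CPM in p62F/F, 9.32, 22.4 and 21.4 in p62Δhep, 13.2, 10.1 and 15.9 in Tsc1Δhep, while Tsc1/p62Δhep held 1.85, 2.04 and 1.33 CPM. Sulf2 and Prex1 were thus highest and Il1rn lowest in the double deletion. Against p62F/F the log2 fold changes were 3.06 ± 0.18 for Sulf2, 1.89 ± 0.11 for Prex1 and -3.95 ± 0.24 for Il1rn (± SE), with edgeR adjusted p-values of 0.000245, 0.000245 and 0.000272.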

How the data were processed

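Poly(A) RNA of flash-frozen liver was sequenced as directional libraries, per the labels' protocols. The authors deposited 2 tables of gene counts of 23420 symbols each, with whole numbers and differing totals. The deposited counts were used as they stand, and rows were joined in their shared order. The aligner, counting tool, annotation and use of strand were not given in the sources used here. A human build, hg19, is named in the submitters' processing notes although the symbols are of mouse, so no coordinates of that build were used. The names of 27 genes had been turned into dates in each table. Of these 20 were tested and 9 were called, and they are not named.

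Genes were kept by filterByExpr over the 6 libraries (minimum 10 counts, 15 in total), scaled by TMM over all 12 libraries, and tested with edgeR 4.0.16 in R 4.3.3 (quasi-likelihood test, Benjamini-Hochberg adjusted p below 0.05). The 2 tables were tested together because raw counts permit a common scale, with the table going with genotype. limma 3.58.1, DESeq2 1.42.0, other scalings and filters, fits without each library and other designs were alternatives. The procedure was tested on simulated data. Near-identical stretches (95% over 200 bases) were found among reference transcripts with minimap2 2.31-r1302, and the alternative that leaves such genes out was chosen after seeing the data. Promoters are from RefSeq (GRCm38.p6), searched with Python 3.11.15.

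The comparison, the 49 gene lists and the rules were chosen with earlier results of these data known. The rule for named genes took 7 fixed genes, the 12 largest changes each way (mean of at least 50 counts, no overlap), up to 4 members of each list with the smallest p (2 where none was called), the 6 genes each way with the smallest p outside the other 9 libraries, and hepatocyte markers with the interval within 2-fold. Not all are named, and some are not reported here.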

Additional observations from a re-analysis of the deposited data

How the results depend on the processing

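The count of genes higher in Tsc1/p62Δhep moved by more than 1.5 times when scaled by library totals (1291, with 2581 lower) and in 1 fit of all 12 libraries (1047, with 1500 lower). Leaving out each library in turn gave 1111 to 2201 higher and 1441 to 2313 lower. The other alternatives, by tool, scaling, filter, GC content and length, or leaving out genes with a near-identical stretch, kept both counts within 1.5 times, at 1767 to 2681 higher and 1607 to 2481 lower, and the count of genes held within 2-fold was 5513 to 8371 over all alternatives. The replicate block gave 1816 higher and 2034 lower. The numbers share no stated source, and the deviations of same-numbered libraries correlated at 0.098, -0.012 and -0.0065, and not every library correlated best with its own number. Small differences changed sign: Alb ranged from -0.011 (without p62F/F library 1) to 0.53 over the fits without 1 library. Prox1 was at 0.0059 with DESeq2 size factors, 0.033 with limma after removing GC and length trends and -0.15 to 0.16 without 1 library. Cebpa was at 0.0042 with that limma fit and at -0.16 to 0.079 without 1 library. Scaling by library totals moved the median log2 fold change of all genes from 0.0063 to -0.11. Of 194 called named genes, 145 kept their call in every alternative that gave a value, and 156 kept it in 1 fit of all 12 libraries. The cause was not tested. For genes at or near 0 in one group the depth of 15792048 to 20763224 counts limits the fold to a lower bound.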

Other observations

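Hamp2, a hepcidin gene of iron handling, was at 1.35, 7.94 and 1.05 CPM in p62F/F, 84, 55.2 and 45.4 CPM in Tsc1/p62Δhep and 14.1, 89.3 and 177 CPM in Tsc1Δhep (log2 fold change 4.12 ± 0.71 (SE), adjusted p = 0.00505 for Tsc1/p62Δhep against p62F/F, edgeR). It was high in both groups of the second table. Among genes that differ between male and female liver, Elovl3, an elongase of male liver, was at 209.8, 121 and 214 CPM in p62F/F and 40.1, 53.9 and 52.6 CPM in Tsc1/p62Δhep (log2 fold change -1.89 ± 0.24 (SE), adjusted p = 0.00195). Cyp2a4, a cytochrome of female liver, was at 43.5, 383 and 187 CPM and 1.65, 3.63 and 7.34 CPM (log2 fold change -5.6 ± 0.90 (SE), adjusted p = 0.0040). Elovl3 and Cyp2a4 were thus both below control, and Cyp2a4 may share counts with its near-identical neighbours. Their lists did not move as these genes did. Of 12 male-biased genes tested 1 was higher and 1 lower, with a median of 0.10. Of 9 female-biased genes tested 3 were lower, 0 higher and 6 not called, with a median of 0.88. Over all genes 17.6% were higher and 18.7% lower.

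Cholangiocyte and progenitor markers had 2 of 11 higher and 4 lower, to be read against 17.6% higher and 18.7% lower over all genes. The higher count was 0 or 1 in each fit without 1 library, and the lower count was 2 without p62F/F library 3 or without Tsc1/p62Δhep library 1 or without Tsc1/p62Δhep library 2 and 1 in 1 fit of all 12 libraries. Immediate early genes were lower in 5 of 11 cases, and the count was 3 without Tsc1/p62Δhep library 1. Of 3 erythroid markers tested 1 was lower (Beta-s, a call lost in 1 fit of all 12 libraries). Of 2 adipocyte markers tested 1 was lower (Fabp4, a call lost without p62F/F library 3, Tsc1/p62Δhep library 1 or Tsc1/p62Δhep library 3 and in 1 fit of all 12 libraries). Adipoq, Lep and Plin1, which had too few counts to be tested, stood the other way, with 1 count of Adipoq in p62F/F and 28 in Tsc1/p62Δhep, 0 and 9 of Lep, and 0 and 8 of Plin1.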
